A study of Homo sapiens with 18 samples.

Results

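The EGR transcription factors, their NAB corepressors, the NR4A nuclear receptors and ARC were followed in A2780 cells, a cisplatin-sensitive ovarian carcinoma line, and in Acis cells, its cisplatin-resistant derivative. The 10 genes (EGR1, EGR2, EGR3, EGR4, NAB1, NAB2, NR4A1, NR4A2, NR4A3 and ARC) were taken by symbol from a count table of 23622 genes. The rule used no measured value, but the choice was made with earlier results of these data known. All 10 were found, each in 1 row, and all 10 passed the filter on low counts that kept 15760 genes for the tests. EGR4 counted only 6 to 11 reads in each untreated library and passed through the treated groups, and NR4A2 passed mainly through A2780. EGR1, EGR2, EGR3 and ARC belong to a set that the study itself picked on these samples as induced in A2780 and already high in Acis, so their values here are no independent support for that pattern.

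RNA-seq covered 4 groups of 3 libraries. They were A2780 control, A2780 treated with 200 µM cisplatin for 3 h, Acis control and Acis treated with the same dose for the same time. Acis cells, including the control ones, had been kept resistant by 1 µM cisplatin every 3 passages. Each line is a single culture model of sensitivity or resistance, and the replicates were wells of 1 line, so p-values measure the spread between these libraries. Whether the control wells received fresh medium is not given in the sources used here. ATAC-seq, which marks open chromatin, was deposited as 1 peak list per condition, and the repair maps of the same study are not analysed here.

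Most of these genes belong to the immediate-early response, in which kinase signalling switches on a fixed set of genes without new protein synthesis. EGR proteins are zinc finger factors that bind GC-rich sites, and the NAB proteins bind most of them and repress the genes they occupy. NAB2 is itself an EGR target, which closes a negative feedback loop. NR4A1, NR4A2 and NR4A3 are orphan nuclear receptors that act without a known ligand. ARC encodes a cytoskeletal protein best known from synapses, where its transcription follows neuronal activity, and EGR factors take part in its control. Serum response factor, which binds the CArG box, drives many EGR genes, while CREB, which binds the cyclic AMP response element (CRE), drives many NR4A genes.

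Total counts were 4130644 to 5072216 per library, and in 7 of 12 replicate pairs the libraries were closer to each other than counting error alone would give. Of the 9 markers of ovarian carcinoma and epithelium looked up, 3 were listed in the table, and PAX8, WT1 and MUC16 were not. The listed KRT8, KRT18 and EPCAM together gave 34.6 to 63.7 normalized counts in A2780 and 135 to 158 in Acis. KRT18 was higher in Acis, while KRT8 and EPCAM were lower. The leukocyte markers summed to at most 6.56 normalized counts in any library, and no endothelial marker was listed. The 4 fibroblast markers were all listed and differed between the lines, with sums of 1236 to 1747 normalized counts in the A2780 libraries and 11.7 to 27.7 in the Acis libraries. Of 5 neuronal markers, RBFOX3 and SNAP25 were not listed, while SYP, SLC17A7 and GAD1 together gave 277 to 342 normalized counts in A2780 and 184 to 208 in Acis. As these are bulk RNA samples, fewer cells with a transcript and less transcript per cell cannot be told apart.

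Sequences just upstream of the start sites differed in the motifs they hold. They were read from the human genome (hg38) at the start of the GENCODE 44 canonical transcript, cut at any annotated exon, and are written 5′ to 3′ in the direction of transcription. The first pair is shown for the CArG box, whose matches are in capitals, since EGR1 is the most abundant EGR gene here and EGR2 the one that differs most between the lines.
EGR1, chr5:138465229-138465478, plus strand: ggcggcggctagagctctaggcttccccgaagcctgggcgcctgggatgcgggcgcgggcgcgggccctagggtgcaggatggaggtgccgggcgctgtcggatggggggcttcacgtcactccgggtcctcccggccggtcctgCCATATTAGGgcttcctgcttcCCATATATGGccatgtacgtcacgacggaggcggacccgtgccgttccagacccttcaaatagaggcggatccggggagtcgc
EGR2, chr10:62816374-62816616, minus strand: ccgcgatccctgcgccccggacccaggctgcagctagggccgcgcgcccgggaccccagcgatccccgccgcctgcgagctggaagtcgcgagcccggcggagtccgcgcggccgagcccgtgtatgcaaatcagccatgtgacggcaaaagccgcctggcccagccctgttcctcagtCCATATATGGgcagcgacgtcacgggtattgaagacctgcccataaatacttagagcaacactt
The next one, of an NR4A gene that rose in A2780, is shown for the short CRE (TGACG, on either strand), whose matches are in capitals. Another match lies in an exon and is not printed.
NR4A3, chr9:99821635-99821854, plus strand: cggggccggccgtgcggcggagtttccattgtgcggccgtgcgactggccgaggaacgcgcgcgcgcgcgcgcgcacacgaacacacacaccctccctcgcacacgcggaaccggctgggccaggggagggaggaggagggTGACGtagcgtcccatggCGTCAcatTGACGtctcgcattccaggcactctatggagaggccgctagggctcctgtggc
In the window from 250 bases before to 50 bases after the start, EGR1 held 2 CArG boxes, and EGR2 and EGR3 held 1 each. A CArG box was found in the same window of 1.2% of 20046 protein-coding genes, and at least 2 in 0.0349% of them. The CArG boxes of EGR2 and EGR3 both lay at -71 to -62, counted from -1 at the base before the start, and both genes carried a short CRE at -54 to -50. EGR4, the NAB genes, the NR4A genes and ARC had no CArG box in the window. NR4A3 held 4 short CREs, a number reached in 0.494% of promoters, while 29.2% held at least 1. NR4A1, which rose less in A2780, also held 4. The EGR site (GCGNGGGCG) was found in 14% of promoters. NAB1 held 4 of them, of which 2 overlap, and at least 4 were present in 0.234% of promoters. NAB2, NR4A1, EGR1 and ARC held 1 EGR site each. The NR4A response element (AAAGGTCA), present in 0.913% of promoters, was in none of the 10 windows. The RefSeq promoter table listed 7 of the 10 genes (EGR3, NR4A2 and ARC were not among them), and for 6 of these its window was the same as the one read here. Such matches describe letters only and are not sites of binding.

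To ask how the sensitive line responds, A2780 cells with and without cisplatin were compared. EGR1 to EGR4, NR4A2, NR4A3 and ARC rose 2.42- to 6.97-fold in 3 h. A gene was called at an adjusted p-value under 0.05 (edgeR's quasi-likelihood test, Benjamini-Hochberg adjustment over all 15760 genes) and a log2 fold change of 1 or more in either direction. By this rule 7 of the 10 genes were called higher, beside 4.14% of all tested genes (652 higher and 233 lower, or 804 and 153 with total counts as library size). At the adjusted p-value alone 9 of 10 were higher, beside 21.2% of all tested genes. The median log2 fold change of the 10 genes was 1.71, against -0.01 over all tested genes and 0.22 over the 3870 tested genes that, like most of these, span 1 to 10 kb.

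EGR1, the founding member of the family and its most abundant one here, counted 336, 358 and 354 normalized reads in the A2780 control libraries and 1250, 1266 and 1241 after cisplatin. These are counts divided by each library's TMM-adjusted size and multiplied by the mean size. The groups were far apart and tight, and the log2 fold change of 1.84 (SE 0.04, adjusted p = 6.05e-22) ranked 2 among all tested genes by p-value. EGR3, which shares targets with EGR1, stood at 69.9, 72.1 and 66.1 in the controls and at 265, 214 and 237 after treatment (log2 fold change 1.78, SE 0.10, adjusted p = 5.37e-14). EGR2, known for its part in myelination and in T cell anergy, was scarce before treatment, with 11.2, 18.3 and 17.1 normalized counts. It reached 47.8, 52.3 and 44.2 after cisplatin (log2 fold change 1.63, SE 0.20, adjusted p = 1.57e-07). EGR4 went from 8.39, 6.73 and 6.4 to 45.9, 43.5 and 63.8, which was the highest fold of the 10 genes (log2 fold change 2.80, SE 0.26, adjusted p = 8.31e-10), from the lowest starting counts. None of the 4 EGR genes had overlapping groups, but the share of such genes among all tested ones was not computed.

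ARC rose within the range of the EGR genes. It had 47.6, 50 and 57.6 normalized counts in the controls and 220, 207 and 232 in the treated libraries (log2 fold change 2.09, SE 0.12, adjusted p = 9.89e-14). Among other genes that follow activity in neurons, 9 of the 12 listed were tested, and GPR3, a constitutively active receptor, was the 1 called higher (log2 fold change 1.09, adjusted p = 7.2e-10).

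The NR4A receptors responded unequally. NR4A2 climbed from 26.1, 28.8 and 21.3 to 125, 103 and 105 normalized counts (log2 fold change 2.11, SE 0.17, adjusted p = 5.04e-11). NR4A3 went from 28.9, 23.1 and 27.7 to 68.4, 57.1 and 67.7 (log2 fold change 1.28, SE 0.16, adjusted p = 3.22e-07). NR4A1, the most abundant of the family per length, moved less. Its values of 344, 314 and 330 became 486, 452 and 452, a log2 fold change of 0.49 (adjusted p = 7.99e-08) that did not reach the fold threshold. Per length, NR4A2 made up 11.2% ± 1.80 (SD, n = 3) of the NR4A RPKM in controls and 26.7% ± 1.23 after cisplatin.

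The corepressors changed little beside the factors they bind. NAB2 stood at 657, 651 and 671 normalized counts in the controls and at 803, 744 and 776 after cisplatin, so the groups did not overlap, but the log2 fold change was 0.23 (adjusted p = 2.97e-05). NAB1 was at 368, 424 and 380 before and 347, 348 and 355 after, a log2 fold change of -0.16 (adjusted p = 0.0202). That pass was lost with total counts as library size (-0.04, adjusted p = 0.584), with DESeq2 (0.166), in a fit of the A2780 groups alone (0.0583), and without A2780 control replicate 2 (-0.10, adjusted p = 0.231) or A2780 cisplatin replicate 1 (0.0531). The summed RPKM of the 4 EGR genes was 28.9 ± 0.962 in the controls and 105 ± 0.564 after treatment (SD, n = 3), while that of the NAB genes was 67.9 ± 1.04 and 74.9 ± 2.24. The ratio of EGR to NAB RPKM was therefore 0.426 ± 0.00775 in control and 1.41 ± 0.0349 in treated A2780 cells.

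**Figure D1:**
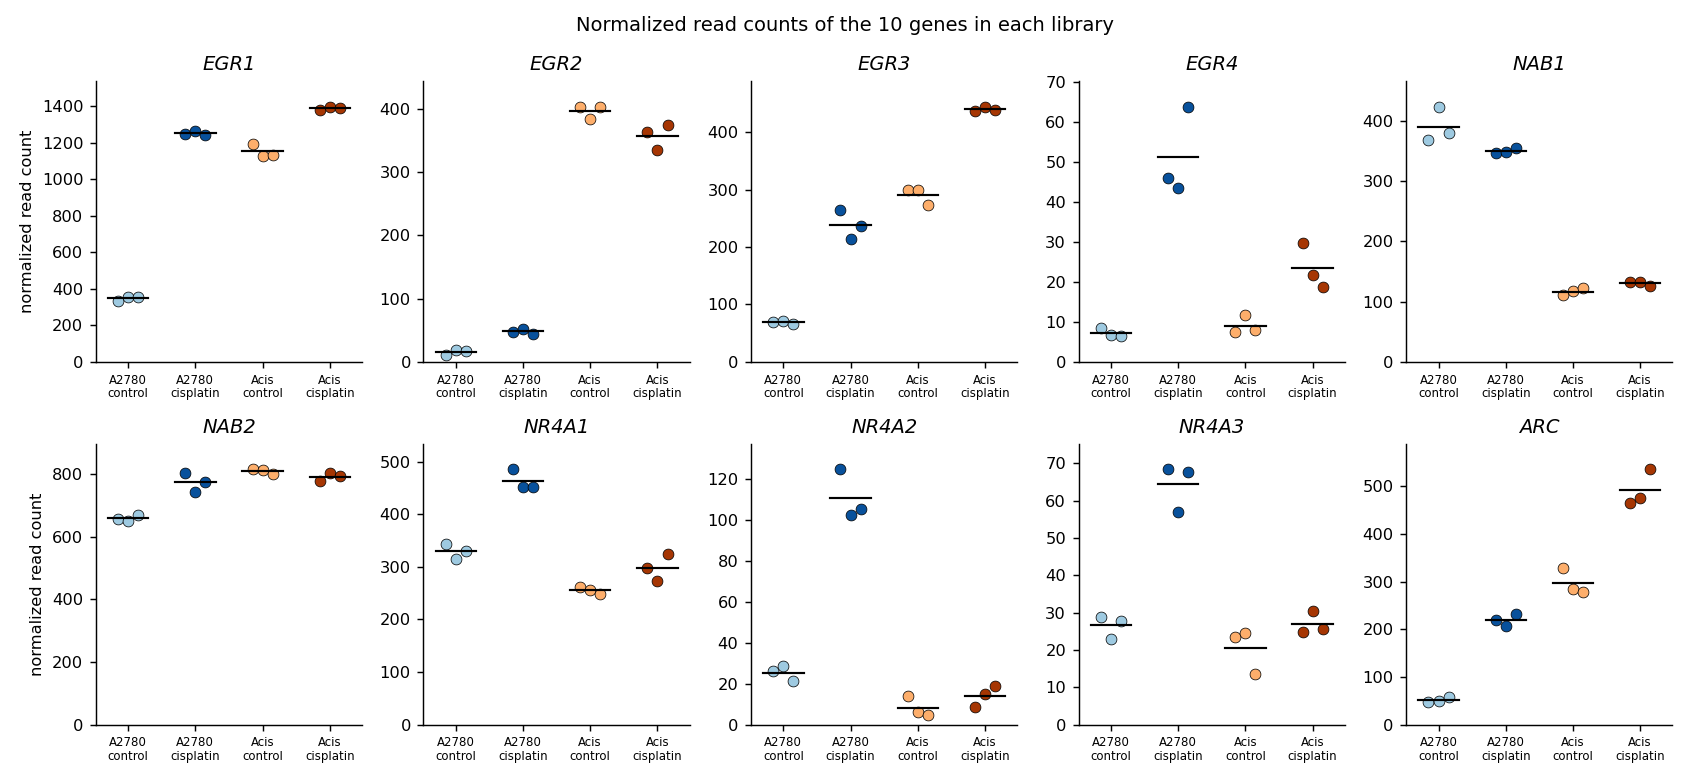
Normalized read counts (y axes, linear and starting at 0) of the 10 genes in the 3 libraries of each of the 4 groups (x axes), with points for libraries and lines for group means. EGR2 sits at 11.2 to 52.3 in the A2780 libraries and at 335 to 403 in the Acis libraries, whereas NR4A2 and NR4A3 are highest in treated A2780, at 103 to 125 and 57.1 to 68.4.

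The same comparison in Acis cells asks whether the resistant line responds. Of the 10 genes, only EGR4 was called higher, beside 1.64% of all tested genes. At the adjusted p-value alone, EGR1, EGR3, EGR4, NR4A1 and ARC were higher, 5 of 10 beside 9.35% of all tested genes. The median log2 fold change of the 10 genes was 0.33, against 0.01 over all tested genes and 0.09 over those spanning 1 to 10 kb.

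EGR4 went from 7.43, 11.7 and 7.97 normalized counts in Acis controls to 29.7, 21.7 and 18.7 with cisplatin (log2 fold change 1.36, SE 0.30, adjusted p = 0.00153). EGR1 counted 1197, 1128 and 1135 before and 1380, 1399 and 1394 after, an increase that was clear of the replicate spread but came to a log2 fold change of 0.27 (SE 0.03, adjusted p = 8.46e-07). EGR3 moved from 299, 300.2 and 273 to 437, 445 and 439 (log2 fold change 0.60, SE 0.06, adjusted p = 3.25e-08). EGR2 was at 402, 383 and 403 in the controls and at 364, 335 and 374 after cisplatin (log2 fold change -0.15, adjusted p = 0.0684). EGR2 was thus the 1 EGR gene whose treated libraries all lay below the controls, though the test did not pass. It passed with the size factors of DESeq2 in edgeR (adjusted p = 0.0362) and without Acis cisplatin replicate 3 (0.0432).

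ARC was at 329, 285 and 278 normalized counts in Acis controls and at 465, 476 and 536 after cisplatin (log2 fold change 0.72, SE 0.07, adjusted p = 3.95e-09). Counted in reads rather than as a fold, ARC gained 195 ± 27.1 (SE) normalized counts in Acis and 168 ± 7.73 in A2780, and EGR3 gained 149 ± 9.05 and 169 ± 15. EGR1 by contrast gained 238 ± 22.6 in Acis and 903 ± 9.90 in A2780. The smaller folds of ARC and EGR3 in Acis thus went with gains that differed by little more than their errors, above a higher start, and the difference between gains was not tested.

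None of the NR4A genes was called in Acis. NR4A2 had 13.8, 6.39 and 4.56 normalized counts in the controls and 8.63, 14.8 and 18.7 after cisplatin, with overlapping groups (log2 fold change 0.74, SE 0.38, adjusted p = 0.179). Without Acis control replicate 1 the log2 fold change was 1.32 and passed (adjusted p = 0.0337), so this value rests on 1 library. NR4A3 had 23.3, 24.5 and 13.7 before and 24.9, 30.5 and 25.5 after (adjusted p = 0.286). NR4A1 had 262, 257 and 248 before and 298, 273 and 325 after, a log2 fold change of 0.22 (adjusted p = 0.0219). That pass was lost with DESeq2 (adjusted p = 0.146), with the closest replicates of every group merged (0.0601), and without Acis control replicate 2 or 3 or Acis cisplatin replicate 1 or 3 (0.0596 to 0.162). NAB1 (110, 118 and 122 before, 133, 132 and 126 after) and NAB2 (816, 812 and 800 before, 778, 805 and 795 after) did not pass, with adjusted p = 0.32 and 0.691, and the log2 fold change of NAB2 changed sign with total counts as library size (-0.03 to 0.024).

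Whether the response differs between the lines was tested by the interaction of line and cisplatin, called at the adjusted p-value alone. The log2 fold change was lower in Acis for 9 of the 10 genes, beside 5.48% of all tested genes. EGR1 had the smallest p-value of all tested genes (difference of log2 fold changes -1.57, SE 0.06, adjusted p = 5.74e-17). EGR2 differed by -1.78 (SE 0.21, adjusted p = 1.34e-06), ARC by -1.37 (SE 0.14, adjusted p = 2.8e-07) and EGR3 by -1.18 (SE 0.12, adjusted p = 1.53e-07). NAB2 differed by -0.26 (adjusted p = 0.00166). These 5 calls held in every alternative that was run. The other 4 calls were near the threshold, namely EGR4 (-1.44, adjusted p = 0.026), NR4A3 (-0.89, adjusted p = 0.0288), NR4A2 (-1.37, adjusted p = 0.0321) and NR4A1 (-0.27, adjusted p = 0.0407). NR4A1 and NR4A2 were lost when the closest replicates of every group were merged (adjusted p = 0.0975 and 0.06). Leaving out single libraries gave 6 to 10 calls, the lower number without A2780 control replicate 2 or 3, Acis control replicate 1 or 2, or Acis cisplatin replicate 1. NAB1 differed the other way and did not pass (0.32, adjusted p = 0.0521), but passed without A2780 control replicate 1 or Acis control replicate 3. Over all tested genes the log2 fold change was higher in Acis than in A2780 for 2113 and lower for 863. The higher ones include genes that fell less in Acis. With total counts as library size these were 1463 and 1572, so the split of the background depends on the scaling. The median difference of the 10 genes was -1.27, against 0.03 over all tested genes and -0.13 over those spanning 1 to 10 kb.

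**Figure D2:**
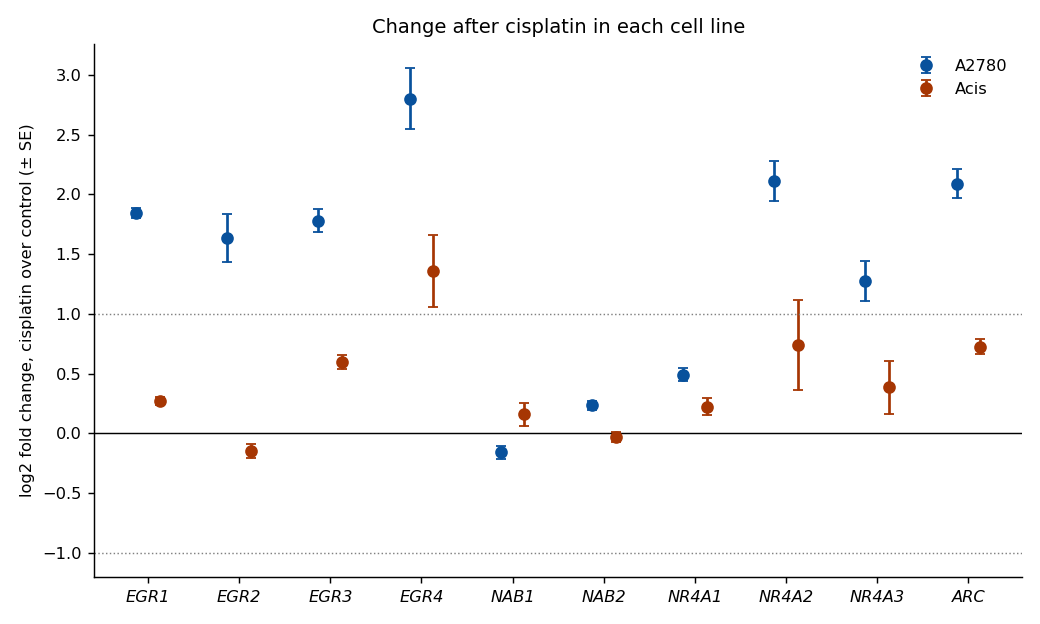
Log2 fold change after cisplatin (y axis, points with SE bars) of each gene (x axis) in A2780 and in Acis, 3 libraries a group, with dotted lines at the fold threshold. For every gene but NAB1 the Acis point lies below the A2780 point, from 1.84 against 0.27 for EGR1 to 0.49 against 0.22 for NR4A1.

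The untreated lines were compared next, to ask which genes already differ before acute treatment. EGR1, EGR2, EGR3 and ARC were called higher in Acis, 4 of 10 beside 6.99% of all tested genes, and NAB1 and NR4A2 were called lower, 2 of 10 beside 12.2%. The controls enter both this comparison and those after cisplatin, so the values are not independent of each other. EGR2 differed most, with 11.2 to 18.3 normalized counts in A2780 and 383 to 403 in Acis (25.5-fold, log2 fold change 4.67, SE 0.12, adjusted p = 8.61e-23). ARC was 5.77-fold higher (SE 0.11 on the log2 scale, adjusted p = 3.73e-17), EGR3 4.19-fold (SE 0.09, adjusted p = 8.56e-17) and EGR1 3.31-fold (SE 0.04, adjusted p = 9.44e-23). EGR4 did not pass (log2 fold change 0.32, adjusted p = 0.527), and its groups overlapped at 6.4 to 8.39 and 7.43 to 11.7.

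Set beside each other with no test, untreated Acis cells held more EGR2 (396 ± 11.3, SD, n = 3) than treated A2780 cells (48.1 ± 4.04). ARC (297 ± 27.5 and 220 ± 12.3) and EGR3 (291 ± 15.2 and 239 ± 25.8) were also higher without overlap. EGR1 (1153 ± 37.9 and 1252 ± 12.5) was lower without overlap. The share of all tested genes whose libraries separate in this way between these groups was not computed, so the lack of overlap does not set these genes apart.

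The NR4A genes did not follow EGR1, EGR2 and EGR3 across the lines. NR4A2 was lower in untreated Acis (4.56 to 13.8 against 21.3 to 28.8 normalized counts, log2 fold change -1.60, SE 0.33, adjusted p = 0.000117). NR4A1 was lower by the adjusted p-value alone (log2 fold change -0.36, adjusted p = 4.66e-05), and NR4A3 did not pass (-0.36, adjusted p = 0.205). The summed NR4A RPKM was 12.1 ± 0.497 in A2780 controls and 8.81 ± 0.621 in Acis controls, and after cisplatin 22 ± 1.37 and 10.6 ± 0.863 (SD, n = 3).

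The 2 corepressors parted. NAB1 was 110 to 122 normalized counts in Acis controls against 368 to 424 in A2780 controls (log2 fold change -1.74, SE 0.08, adjusted p = 1.84e-17). NAB2 was 800 to 816 against 651 to 671 (log2 fold change 0.30, adjusted p = 5.65e-07) and was not called. NAB1 therefore made up 25.7% ± 1.63 of the NAB RPKM in A2780 controls and 7.79% ± 0.431 in Acis controls, while the summed NAB RPKM was 67.9 ± 1.04 and 67.1 ± 0.436, a difference within the replicate spread. The fibroblast markers, whose sums are given above, were low in the same line as NAB1, and their part in this result was not tested.

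**Figure D3:**
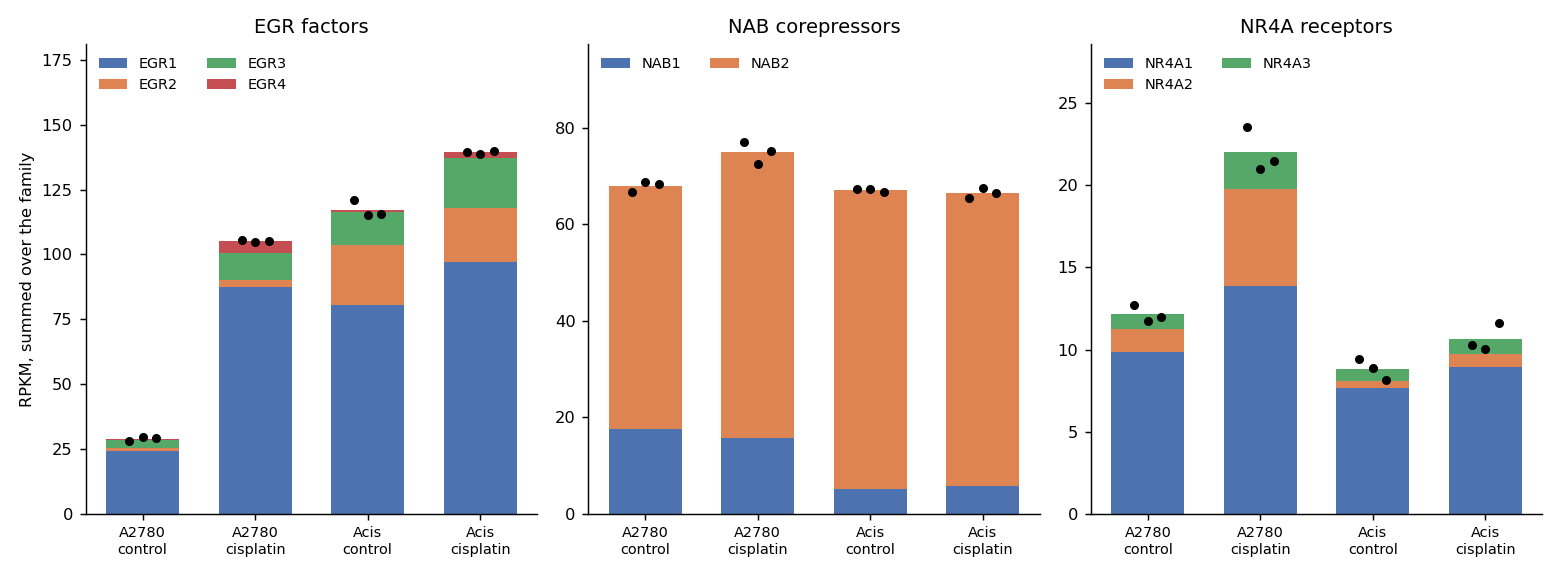
Summed RPKM (y axes, reads scaled by exonic length and library size) of the EGR, NAB and NR4A families in the 4 groups (x axes), with stacked bars for the group mean of each gene and black points for the family sum in each of 3 libraries. The EGR sum is 28.9 in A2780 controls and 105 to 139 in the other groups, the NAB sum stays between 66.4 and 74.9, and the NR4A sum peaks at 22 in treated A2780.

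After cisplatin, EGR2 and ARC were called higher in Acis than in A2780, 2 of 10 beside 7.28% of all tested genes, and EGR4, NAB1, NR4A2 and NR4A3 were called lower, 4 of 10 beside 11.9%. EGR2 remained 7.42-fold higher (log2 fold change 2.89, SE 0.09, adjusted p = 1.85e-20) and ARC 2.24-fold (1.16, SE 0.07, adjusted p = 1.92e-14). EGR1 differed by only 0.15 on the log2 scale (adjusted p = 0.0002), and EGR3 by 0.88 (adjusted p = 1.03e-12), below the fold threshold. NR4A2 showed the widest gap, with 8.63 to 18.7 normalized counts in Acis and 103 to 125 in A2780 (log2 fold change -2.98, SE 0.19, adjusted p = 1.55e-13). NAB1 (-1.43, adjusted p = 8.04e-16) and NR4A3 (-1.25, adjusted p = 1.75e-07) followed. EGR4 was lower by -1.12 (adjusted p = 1.2e-05), which fell short of the fold threshold without A2780 cisplatin replicate 3 (-0.93) or Acis cisplatin replicate 3 (-0.98). NR4A1 (-0.63, adjusted p = 4.01e-10) passed the adjusted p-value only, and NAB2 (0.03, or -0.022 with total counts as library size, adjusted p = 0.501) did not pass.

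Per length, the makeup of the EGR family also differed between the lines. EGR1 gave 84.1% ± 0.475 of the EGR RPKM in A2780 controls and 83% ± 1.18 after cisplatin, against 68.6% ± 0.443 and 69.6% ± 0.707 in Acis (SD, n = 3). EGR2 gave 3.15% ± 0.680 and 2.7% ± 0.237 in A2780 against 19.9% ± 0.569 and 15.1% ± 0.792 in Acis. EGR3 held a steadier share, between 9.85% and 13.7% in all 4 groups. The ratio of EGR to NAB RPKM was 1.75 ± 0.0428 in Acis controls and 2.10 ± 0.0382 after cisplatin, above the 1.41 of treated A2780 cells in both. Because duplicates were removed by position before counting, a gene with many reads per base can be counted too low. EGR1 reached 0.458 counts per exonic base, NAB2 0.2995 and ARC 0.182, and the others at most 0.103, and the effect on their folds was not tested.

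The genes around these factors were read from lists chosen with earlier results of these data known. Of 30 tested immediate-early genes, 17 were called higher in A2780 and 7 in Acis, beside 4.14% and 1.64% of all tested genes, and none lower, and their median log2 fold changes were 1.08 and 0.43. FOS, a subunit of AP-1, rose most by p-value in A2780 (log2 fold change 3.49, adjusted p = 1.65e-24). ATF3, a stress-induced repressor (2.21, adjusted p = 4.15e-19), and PLK2, a kinase induced by serum and by p53 (1.88, adjusted p = 1.12e-18), rose too. By the interaction the log2 fold change was lower in Acis for 20 of the 30, beside 5.48% of all tested genes. PLK2 differed by -1.62 (adjusted p = 3.06e-14) and FOS by -1.62 (adjusted p = 4.51e-09). It was higher for 1, the NF-κB regulator NFKBIZ (0.54, adjusted p = 0.0033), a gene named here after its value was seen.

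None of 25 kinases and factors upstream of immediate-early genes was called after cisplatin in either line. Of all tested genes, 4.14% were called higher and 1.48% lower in A2780, and 1.64% higher in Acis. MEF2C, named here after its value was seen, had 1030 normalized counts in A2780 controls and 0 in both Acis groups. It could therefore not be called after cisplatin in Acis. At the adjusted p-value alone, 14 of the 25 were lower in A2780, beside 28.2% of all tested genes, and 4 were higher, beside 21.2%. In Acis 4 were lower, beside 12.4%. By the interaction the log2 fold change was higher in Acis for 7 of them, beside 13.4%. All 7 fell in A2780 and changed less in Acis. ELK4, a partner of serum response factor (difference 0.38, adjusted p = 1.4e-05), and CREB1, which binds the CRE (0.59, adjusted p = 4.1e-05), led by p-value. ELK4 changed by -0.33 on the log2 scale in A2780 and by 0.06 in Acis. CREB1 itself changed by -0.61 on the log2 scale in A2780 (adjusted p = 5.36e-09) and -0.02 in Acis (adjusted p = 0.883).

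Known EGR targets changed in both directions in A2780. Of 21 listed, 16 were tested. By the adjusted p-value without a fold threshold, 5 of the 16 rose and 6 fell, beside the 21.2% and 28.2% given above. Of these, 3 were called higher, beside 4.14% of all tested genes: GDF15, a stress cytokine (log2 fold change 1.39, adjusted p = 7.09e-14), MMP14, a membrane-bound matrix metalloproteinase (1.39, adjusted p = 7.12e-06), and F3, tissue factor (1.41, adjusted p = 2.28e-05). PDGFB, a growth factor subunit named here after its value was seen, was called lower (-1.24, adjusted p = 0.000861), 1 of 16 beside 1.48%. The median over the list was -0.01 in A2780 and 0.02 in Acis, where none was called. By the adjusted p-value alone, 3 of the 16 rose in Acis and 1 fell, beside 9.35% and 12.4% of all tested genes. F3 (0.38 and 0.66 normalized counts in Acis control and cisplatin) and PDGFB (0.73 and 0.64) were too scarce there to be called. GDF15 missed only the fold threshold in Acis (log2 fold change 0.97, adjusted p = 7.31e-06). In the interaction the log2 fold change of FGF2, a growth factor, was higher in Acis (difference 0.38, adjusted p = 0.00498). It was -0.42 in A2780 and -0.03 in Acis, so FGF2 changed less in Acis. Of 11 partners and targets of the NR4A receptors only the receptors RXRA and RXRB, which pair with NR4A1 and NR4A2, were tested. RXRA stood at -0.69 on the log2 scale in A2780 (adjusted p = 4.32e-10) and -0.67 in Acis (adjusted p = 2.2e-08), and its responses differed by 0.02 (adjusted p = 0.934). RXRB stood at 0.34 on the log2 scale in A2780 (adjusted p = 7e-05) and 0.01 in Acis (adjusted p = 0.946), and the responses differed by -0.33 (adjusted p = 0.012).

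Likeness of pattern was described by Pearson's r of log2 CPM over the 12 libraries, which share their 4 groups. Among 10680 other genes, EGR1 was most like PLK2 (r = 0.991), followed by SNHG12 (0.987) and JMJD6 (0.984). EGR2 was most like SLC35E4 (0.995), SHC1 (0.994) and PLP2 (0.992). EGR4 was most like FOS (0.971), DUSP1 (0.970) and RHOB (0.968). ARC was most like SIRT7, SLC6A8 and HES7 (0.987, 0.987 and 0.985), and EGR3 was most like CDCA5, SLC6A8 and SLC30A1 (0.991, 0.989 and 0.987). NAB1 was most like RBPMS, CYP1B1 and THBS1 (0.998, 0.997 and 0.997), and NAB2 most like ZFP36L1 and SNHG12 (0.972 and 0.968). NR4A1 paired with RASL11A, GDF15 and DMPK (0.983, 0.983 and 0.978), NR4A2 with CCHCR1, VAT1 and RASL11A (0.980, 0.978 and 0.975) and NR4A3 with ZNF408, NDUFB4 and BOLA1 (0.976, 0.965 and 0.962). Within the 10 genes, ARC and EGR3 had r = 0.994, EGR1 and EGR3 0.963, NR4A1 and NR4A2 0.962, and EGR2 and NAB1 -0.968. EGR4 had r = 0.717, 0.656 and 0.822 with NR4A1, NR4A2 and NR4A3. Its r with EGR1, EGR2 and EGR3 was 0.625, 0.035 and 0.487.

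Open chromatin at the start sites was read from the ATAC-seq lists, which hold only peaks found in all replicates of a condition and allow no test. A peak lay within 1 kb of the start of all 10 genes in both A2780 lists and of 9 of 10 in both Acis lists. Over 12197 tested protein-coding genes these shares were 82.3% and 84.3% in A2780 control and cisplatin, and 75.3% and 80.1% in the Acis lists. The Acis lists were also shorter, with 24485 and 27321 peaks against 34979 and 32159. The fold enrichment over local background depends on the list, so some peaks are also given by their place within their list.

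NAB1 was the gene without a start peak in Acis. The A2780 lists held 1 at chr2:190648008-190648846 in control (fold enrichment 13.4, above 68.8% of the list) and chr2:190647977-190648836 after cisplatin (10.8, above 64.4%), with summits at -374 and -385. A peak inside the gene, 31428 to 31434 bases after the start, was present in A2780 control (15.7) and in both Acis lists (20.3 and 20.2). Side by side, the line without the start peak was the one with the lower NAB1 RNA.

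EGR2 had 4 peak regions within 50 kb of its start, and all 4 were present in all 4 lists. Its start peak had a fold enrichment of 7.76 without and 7.36 with cisplatin in A2780, and of 9 without and 8.95 with it in Acis, above 29.1% to 37.6% of each list. The RNA of EGR2 thus differed 25.5-fold between the untreated lines with the same set of listed peaks around the gene. The EGR1 start peak, with its summit at -853 or -854, had 7.17, 8.04, 7.41 and 8.51 in the same order. Treated A2780 cells alone of the 4 lists held another peak 755 bases into the gene (2.96), above only 0.86% of its list. ARC had start peaks in all 4 lists, at a highest fold enrichment of 6.49, 3.49, 6.03 and 5.81. These lay above 23.6%, 2.5%, 13.2% and 13.5% of their lists. EGR4 had a peak with its summit at -128 or -133 in A2780 controls (13.2) and in Acis cells without (19.5) and with cisplatin (17.1). In treated A2780 cells, where EGR4 RNA was highest, the list held no peak with its summit before the start. It kept the region downstream of the start that 2 other lists also held, with summits 1456 (4.78) and 2195 bases (5.07) into the gene, against 1487 (4.30) in A2780 controls and 2192 (3.91) in treated Acis cells. NR4A3 had a summit at -55 or -57 in every list (12.8, 10.2, 18.7 and 18.9), and NR4A2 kept all 3 of its regions within 50 kb in all 4 lists.

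**Figure D4:**
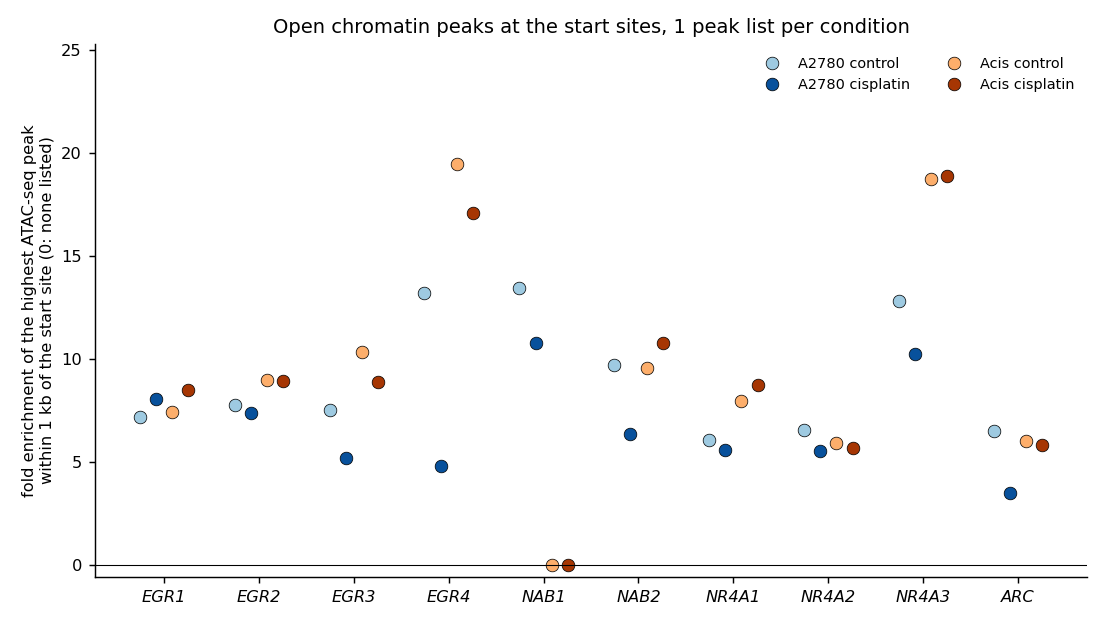
Fold enrichment over local background (y axis) of the highest ATAC-seq peak within 1 kb of the start site of each gene (x axis) in the 1 list per condition, with 0 where none is listed. NAB1 has 13.4 and 10.8 in A2780 and none in Acis, and EGR4 has 13.2 to 19.5 from a peak before the start in the other lists but 4.78, from a peak whose summit lies inside the gene, in the A2780 cisplatin list.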

How the data were processed

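RNA-seq counts of the 12 libraries were used as deposited: per the methods of the authors, ribosomal RNA-depleted stranded reads were aligned with STAR 2.7.3, PCR duplicates removed with Picard, and counts made with HTSeq 0.11.1 (reverse strand, no normalization). For ATAC-seq (Bowtie2, MACS2, hg38), the deposited peaks carry a fold enrichment over local background, and the authors also deposited MACS2's −log10 p and −log10 q values; a list holds peaks that overlapped between all replicates (3 for controls). The counting annotation is not given in the sources used here. The 12 count columns were mapped by name, and 0 columns were left over. The XR-seq samples are not analysed here.

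Counts were fitted in R 4.3.3 with edgeR 4.0.16 (TMM factors of 0.965 to 1.05, filterByExpr with a minimum count of 10, 15760 genes, 8 residual degrees of freedom, common dispersion 0.000304, quasi-likelihood test, Benjamini-Hochberg adjustment). The SE is the log2 fold change over the root of the F statistic. DESeq2 1.42.0, which the authors used on the counts, was an alternative. RPKM was computed from normalized counts and the exonic length in GENCODE 44. At 4130644 to 5072216 counts per library, genes with under 20 counts have wide errors. Of 12 pairs of replicates, 7 differed by less than counting noise (0.751 to 1.50 times it), so the spread is mostly that of counting, and merged replicates were an alternative. Same-numbered libraries were not treated as pairs (correlations of -0.206 to 0.282). The fit was tested on simulated data. Figures were drawn with matplotlib.

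The 10 genes and the lists were chosen with earlier results of these data known. Beside the 10 genes, the text names from each list at most 3 called genes with the smallest adjusted p in A2780 and 2 in the interaction, and for each of the 10 the 3 genes with the highest Pearson correlation (log2 CPM, prior count 2, mean of at least 50 normalized counts). NFKBIZ, PDGFB, RXRA and MEF2C were named after their values were seen. Alternatives were DESeq2 (with and, chosen after seeing the data, without independent filtering), other scalings, no filter, only the groups compared, each library left out, a replicate block, and other windows and limits for peaks. Some items that this rule would name are not reported here.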

Additional observations from a re-analysis of the deposited data

Results flagged for a closer look

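The response to cisplatin differed between the lines by the interaction test for 9 genes, which is what set them apart here. Over all tested genes, 5.48% were called with a lower and 13.4% with a higher log2 fold change in Acis. Only the calls of EGR1, EGR2, EGR3, NAB2 and ARC held under every alternative run. The difference of log2 fold changes (Acis minus A2780, edgeR's quasi-likelihood test) was -1.57 for EGR1, -1.78 for EGR2, -1.18 for EGR3, -1.44 for EGR4, -0.26 for NAB2, -0.27 for NR4A1, -1.37 for NR4A2, -0.89 for NR4A3 and -1.37 for ARC, with adjusted p from 5.74e-17 (EGR1) to 0.0407 (NR4A1). Every library of EGR2 in A2780 was higher with cisplatin than without it, and every library of EGR2 in Acis was lower. The fall in Acis did not pass (log2 fold change -0.15, adjusted p = 0.0684). The share of tested genes with groups so separated was not computed.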

How the results depend on the processing

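Of 1036 values of single genes under alternatives, 1002 kept their direction and their call or lack of one, 29 lost the call, 3 gained one and 2 changed sign. Outside the interaction a call needs both thresholds. Genes below the fold threshold that crossed only the adjusted p-value, such as NAB1 in A2780, thus count as kept. Values with no adjusted p were left out. The sign changes were those of NAB2 with total counts as library size, to 0.024 in Acis cisplatin versus control and to -0.022 in Acis versus A2780 after cisplatin, neither past the test. That scaling put the median of all tested genes (log2) at 0.10 in A2780 and 0.07 in Acis after cisplatin, and the all-gene calls in A2780 at 804 higher and 153 lower against 652 and 233. The calls of EGR1, EGR2, EGR3, NAB2 and ARC in the interaction held under every alternative run. With DESeq2 the interaction was called for 5 of the 10 genes, NR4A1 was lost (adjusted p = 0.117) and EGR4, NR4A2 and NR4A3 had no adjusted p after independent filtering. Without that filtering 6 were called, with EGR4 (0.0817), NR4A1 (0.155) and NR4A3 (0.142) lost. NR4A1 was also lost with no filter (0.0737), and with replicates merged (0.0975 and 0.0696), as was NR4A2 (0.06). Without Acis control replicate 1 the difference for NR4A2 was -0.78 (adjusted p = 0.41). In Acis after cisplatin, the adjusted p-value alone gave 5 calls in place of 1. Leaving out 1 library at a time gave 7 to 7 calls in A2780, 1 to 2 in Acis (2 without Acis control replicate 1), 6 to 6 between the controls, 5 to 6 between the treated lines and 6 to 10 in the interaction. With the replicate block, 7, 1, 6, 6 and 9 genes were called as in the fit without it. The labels do not tie equal numbers, whose libraries correlated at -0.206 to 0.282 (not all over 0.1), so they were not taken as pairs. As a hint from the data only, a library correlated best with its own number in 20 of 36 cases, each with 3 numbers to choose from. Whether this is more than chance would give was not tested. Over all genes, a lower log2 fold change in Acis was called by the interaction for 863 genes. This was 330 with DESeq2, 302 without its filtering, 1572 with total counts, 525 to 926 with 1 library left out and 501 with all groups merged. Counting only peaks that cover the start site gave 6 genes in A2780 control and 5 in A2780 cisplatin, against 8 in Acis control and 6 in Acis cisplatin. The order of the lines was thus the reverse of that within 1 kb. The cause of these changes was not tested. Depth limits EGR4, NR4A2 and NR4A3, with under 40 counts in each untreated library.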
